A study of Homo sapiens with 16 samples.

Results

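The 29 genes described here make cholesterol and fatty acids or control that synthesis. They were chosen by symbol from the 23459 genes of the deposited table, as 19 sterol enzymes, 6 regulators and 4 fatty acid enzymes. RNA of human myeloma cells, malignant plasma cells grown as established lines, was sequenced in 16 libraries. The lines were MM.1s, RPMI8226 and KMS18, for which the labels name no added gene, and a derivative of RPMI8226 that overexpresses Mcl1, a protein that blocks apoptosis. Every line received by transfection the empty pLK0.1 vector (Vec), a short hairpin RNA (shRNA) against Gapdh as the second control, or a shRNA against CD28 or CD86, and each combination gave 1 library. CD28 is a receptor best known from T cells, and CD86 is its ligand. The Mcl1 line is 1 derived line. The lines serve as replicates of a shRNA, so a p-value of a shRNA comparison covers the spread among these lines and nothing wider. Where lines are compared with each other, the 4 libraries of a line, each with another shRNA, serve as its replicates. A p-value between lines therefore covers the spread between libraries only, and not that between separate cultures or derivations of a line. How many hairpins were used, their sequences and the time of harvest: not given in the sources used here.

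Cholesterol is built from acetyl-CoA through mevalonate, isoprenoid diphosphates, squalene and lanosterol, and fatty acids are built from the same acetyl-CoA by carboxylation, chain building and desaturation. Transcription of both sets is driven by the sterol regulatory element binding proteins (SREBPs), which are held in the endoplasmic reticulum with their escort SCAP by the INSIG proteins while sterol is plentiful and are released by proteolysis when it falls. SREBF2 encodes the form mainly tied to sterol genes and SREBF1 the forms tied more to fatty acid genes, and both genes are themselves SREBP targets. Plasma cells carry a large endoplasmic reticulum, whose membrane is made from these lipids.

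Reads in genes numbered 3914513 to 5900955 per library, and the CD28 shRNA library was the shallowest of its line in all 4 lines (3914513 to 4577443 reads). Of 8 plasma cell markers, 6 were above 10 FPKM in every library, and the lowest value of any of the 8 was 0 FPKM. The summed level of all 8 was 631 to 1887 FPKM, against at most 7.48 for T cell, 3.54 for myeloid, 1.08 for stromal and 0.356 for hepatocyte markers. FPKM values are fragments scaled by exon length and library size. A comparison of levels between genes rests on the exon length used, such as 9719 bases for SC5D. Whether that length matches the transcripts present was not tested. MCL1 was at 127 to 173 FPKM in the Mcl1 line and at 49.6 to 62.7 in RPMI8226. GAPDH was at 133 to 630 FPKM with Gapdh shRNA and at 985 to 1387 in the other libraries. CD28 was at 42.7, 56.0, 32.4 and 35.7 FPKM with CD28 shRNA in MM.1s, RPMI8226, KMS18 and the Mcl1 line, against 65.7, 70.6, 45.8 and 52.9 with Vec, so that most CD28 transcript remained. CD86 was at 1.40, 5.28, 1.10 and 2.86 FPKM with CD86 shRNA against 3.18, 6.92, 2.49 and 5.80 with Vec. CD86 did not pass the test against Vec (log2 difference -0.62, SE 0.24, adjusted p = 0.315 by limma), and it rests on 18 to 186 reads per library. With CD28 shRNA CD86 was at 8.97, 11.4, 3.10 and 12.3 FPKM, above Vec in all 4 lines. With Gapdh shRNA it was at 6.46, 6.51, 3.45 and 5.46 FPKM, which in KMS18 was above the CD28 shRNA value. Between CD28 shRNA and Vec the log2 difference of CD86 was 0.71 (SE 0.24, adjusted p = 0.142), and 0.90 in the authors' deposited table (FDR 0.0288). In bulk RNA, fewer cells of a type and less RNA per cell cannot be told apart.

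Sequences around the members that moved are shown first, because the comparisons below return to them. RefSeq promoters (GRCh38.p14, 250 bases before to 50 after each start) matched 25 of the 29 members, some with several starts, and ACAT2, FDFT1, SQLE and FASN had no entry. Both strands were searched for the sterol regulatory element-like letters TCACNCCAC, for CCAAT, the core bound by NF-Y, for GGGCGG, a GC box, and for CACGTG, an E-box that SREBPs can also bind. These motifs do not overlap one another. CCAAT was in a promoter of 20 of 25 members (14 of 16 sterol enzymes), against 43.6% of the 8466 tested genes with an entry. GGGCGG was in 24 of 25 members against 77.8%, and CACGTG in 4 of 25 against 13.3%. TCACNCCAC was in 1 of 25 members against 1.55%, and that member was SREBF2. A match is a description of letters in this window and not a bound site. The 250 bases before the start are given for the regulator SREBF2 (plus strand, chr22:41832855-41833104) and the sterol enzyme gene MSMO1 (plus strand, chr4:165327419-165327668). Both genes passed the test between CD28 and CD86 shRNA. IDI1, ACLY, DHCR7 and SREBF1 passed it as well, and their promoters are not printed. The sterol element-like letters and CCAAT on either strand are in capitals.
SREBF2: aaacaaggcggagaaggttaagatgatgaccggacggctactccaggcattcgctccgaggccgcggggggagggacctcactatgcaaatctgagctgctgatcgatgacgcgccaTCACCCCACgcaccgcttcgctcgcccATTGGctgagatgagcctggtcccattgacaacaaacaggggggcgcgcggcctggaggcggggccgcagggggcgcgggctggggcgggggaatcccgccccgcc
MSMO1: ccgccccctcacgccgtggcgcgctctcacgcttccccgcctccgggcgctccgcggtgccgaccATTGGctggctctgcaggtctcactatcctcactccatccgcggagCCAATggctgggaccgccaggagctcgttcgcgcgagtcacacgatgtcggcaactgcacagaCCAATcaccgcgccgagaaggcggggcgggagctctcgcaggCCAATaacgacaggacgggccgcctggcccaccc

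SREBF2 held TCACCCCAC with 1 CCAAT after it, read on the other strand as ATTGG. MSMO1 held CCAAT 4 times. The only SREBF1 start among these promoters held none, and any other start of that gene was not searched.

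Many of the 29 genes differed in level between the lines. All 29 had a mean of at least 1 FPKM and were tested by limma on log2(FPKM + 1), with Benjamini-Hochberg adjustment over all genes and a threshold of 0.05. In KMS18 against MM.1s 23 members passed, against 65.3% of all 11316 genes tested, 15 of them higher (30.8% of genes) and 8 lower (34.5%). In RPMI8226 against MM.1s 21 members passed against 69.1% of genes, 18 higher (33.2%) and 3 lower (35.9%). In KMS18 against RPMI8226 21 members passed against 70.3% of genes, 9 higher (35.2%) and 12 lower (35.1%). The totals were near the share of all genes. FDPS, which makes farnesyl diphosphate, was among the 3 highest members in every line, at 131 to 155 FPKM on average, and SC5D, a late desaturase of the sterol ring, was among the 3 lowest at 2.30 to 4.25 FPKM.

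**Figure D1:**
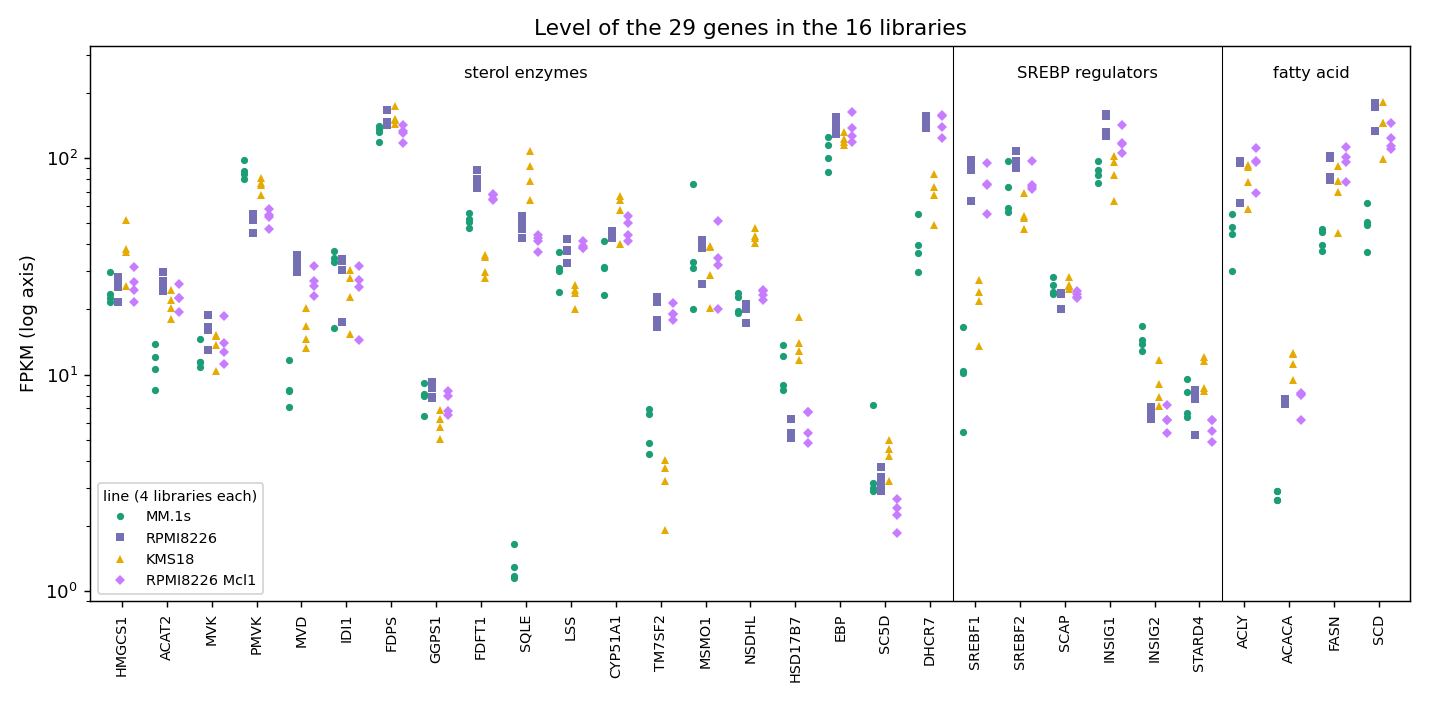
FPKM (log axis) of each of the 29 genes in all 16 libraries, 4 libraries a line, with sterol enzymes, SREBP regulators and fatty acid enzymes separated by vertical lines. SQLE in MM.1s sits at 1.15 to 1.64 FPKM, and at 36.7 or above in each of the other 3 lines.

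Among the sterol enzymes the widest gap was in SQLE, squalene epoxidase, which puts the first oxygen on the sterol precursor. SQLE was at 1.29, 1.15, 1.64 and 1.18 FPKM in MM.1s with Vec, Gapdh, CD28 and CD86 shRNA, at 54.1, 46.8, 42.8 and 50.2 in RPMI8226, at 92.5, 107, 78.6 and 64.0 in KMS18, and at 42.8, 44.2, 36.7 and 41.4 in the Mcl1 line. No MM.1s library came near any other library. The 4 MM.1s values rest on 22 to 24 reads each. The log2 difference was 5.21 (SE 0.14, adjusted p = 1.68e-10) between KMS18 and MM.1s and 4.42 (SE 0.14, adjusted p = 3.76e-10) between RPMI8226 and MM.1s. FDFT1, which makes squalene, the substrate of SQLE, was at 55.6, 52.4, 47.4 and 51.0 FPKM in MM.1s. LSS, which closes the product of SQLE into lanosterol, was at 24.0 to 36.7 FPKM there.

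TM7SF2, a sterol ring reductase, was at 4.83, 4.29, 6.96 and 6.55 FPKM in MM.1s, at 21.7, 17.9, 22.8 and 16.6 in RPMI8226, at 4.02, 3.21, 3.69 and 1.92 in KMS18, and at 17.9, 19.0, 21.3 and 19.0 in the Mcl1 line, in the same order of shRNAs. RPMI8226 and its Mcl1 derivative were above every library of both other lines. Its log2 difference between KMS18 and RPMI8226 was -2.32 (SE 0.16, adjusted p = 1.95e-07 by limma), and the KMS18 values rest on 23 to 57 reads each. DHCR7, the last reductase before cholesterol, and MVD, which makes isopentenyl diphosphate, had a different order from TM7SF2, with RPMI8226 above KMS18 and KMS18 above MM.1s. For DHCR7 the log2 differences were 1.88 (SE 0.12) between RPMI8226 and MM.1s and 0.76 (SE 0.12) between KMS18 and MM.1s. HSD17B7, a sterol ketone reductase with a pseudogene copy that may share reads, was at 5.10 to 6.25 FPKM in RPMI8226 and at 8.48 to 18.5 in MM.1s and KMS18.

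Among the regulators SREBF1 varied most. SREBF1 was at 10.2, 10.4, 16.6 and 5.41 FPKM in MM.1s with Vec, Gapdh, CD28 and CD86 shRNA, at 90.2, 87.8, 98.2 and 63.2 in RPMI8226, at 24.1, 21.9, 27.4 and 13.6 in KMS18, and at 75, 75.8, 95 and 55.2 in the Mcl1 line. RPMI8226 and the Mcl1 line did not overlap MM.1s or KMS18 under any shRNA. Its log2 difference was 2.95 (SE 0.11, adjusted p = 1.92e-09) between RPMI8226 and MM.1s. INSIG2, which retains SCAP, had another order and was highest in MM.1s. INSIG2 was at 16.9, 12.9, 13.9 and 14.5 FPKM in MM.1s, at 6.64, 7.05, 6.21 and 6.93 in RPMI8226, at 7.85, 7.12, 9.05 and 11.6 in KMS18, and at 6.19, 5.35, 7.26 and 6.19 in the Mcl1 line. All 4 MM.1s values were above the 12 others, with a log2 difference of -1.004 (SE 0.13, adjusted p = 2.90e-05) between RPMI8226 and MM.1s. SCAP, the escort, stayed within 20.03 to 28.4 FPKM in all 16 libraries.

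All 4 fatty acid enzymes were lower in MM.1s than in RPMI8226 and in KMS18. Their log2 differences from MM.1s were 0.97 to 1.73 in RPMI8226 and 0.69 to 1.71 in KMS18, and all 8 passed. ACACA, acetyl-CoA carboxylase, was at 2.91, 2.91, 2.65 and 2.63 FPKM in MM.1s with Vec, Gapdh, CD28 and CD86 shRNA, at 7.32, 7.56, 7.75 and 7.59 in RPMI8226, at 11.2, 12.6, 12.5 and 9.44 in KMS18, and at 8.05, 8.17, 8.20 and 6.15 in the Mcl1 line. SCD, stearoyl-CoA desaturase, was at 62.0, 49.2, 50.9 and 37.0 FPKM in MM.1s, at 177, 179.9, 134 and 172 in RPMI8226, at 146, 181, 145 and 98.8 in KMS18, and at 124, 145, 110.0 and 114 in the Mcl1 line. For both genes each MM.1s library lay below every library of the other lines. FASN, fatty acid synthase, was at 37.4 to 47.2 FPKM in MM.1s, 79.1 to 102 in RPMI8226 and 45.2 to 92.1 in KMS18, where the lowest KMS18 library fell inside the MM.1s range.

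CD28 shRNA was compared with Vec over the 3 parental lines, in a fit of 12 libraries. IDI1 and ACLY fell and SREBF2 rose, 3 of 29 members, against 2.83% of 11316 genes called (2.11% lower and 0.716% higher). IDI1, isopentenyl diphosphate isomerase of the mevalonate branch, was at 33.3, 34.2, 30.5 and 31.7 FPKM with Vec in MM.1s, RPMI8226, KMS18 and the Mcl1 line, at 34.7, 30.5, 27.9 and 27.2 with Gapdh shRNA, at 16.5, 17.4, 15.3 and 14.4 with CD28 shRNA, and at 37.2, 33.6, 22.9 and 25.4 with CD86 shRNA. The 4 CD28 shRNA libraries lay below all 12 others, in a band of 14.4 to 17.4 FPKM. IDI1 with CD28 shRNA was at 50.3% ± 0.657 of Vec (SD over 3 lines). Its log2 difference was -0.95 (SE 0.11, adjusted p = 0.00222 by limma).

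ACLY, ATP citrate lyase, which supplies the acetyl-CoA for both pathways, was at 55.1, 95.3, 93.2 and 96.2 FPKM with Vec in the same order of lines, at 44.6, 96.9, 90.9 and 111 with Gapdh shRNA, at 30.3, 61.8, 58.2 and 69.1 with CD28 shRNA, and at 48.2, 96.2, 77.9 and 96.7 with CD86 shRNA. In each line the CD28 shRNA library was the lowest of the 4. The log2 difference was -0.71 (SE 0.09, adjusted p = 0.00226), and without KMS18 it was -0.73 (adjusted p = 0.0525). SREBF2 was at 58.5, 92.5, 52.9 and 75.5 FPKM with Vec, at 73.5, 97.4, 53.8 and 73.4 with Gapdh shRNA, at 97.4, 108, 69.1 and 97.5 with CD28 shRNA, and at 56.3, 90.04, 46.9 and 71.8 with CD86 shRNA. The CD28 shRNA library was the highest in each line, though the lines overlapped. Its log2 difference of 0.44 (SE 0.10, adjusted p = 0.0453) did not pass when any line was left out (adjusted p = 0.257 without MM.1s, 0.0839 without RPMI8226 and 0.215 without KMS18) or against Gapdh shRNA (adjusted p = 0.158).

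**Figure D2:**
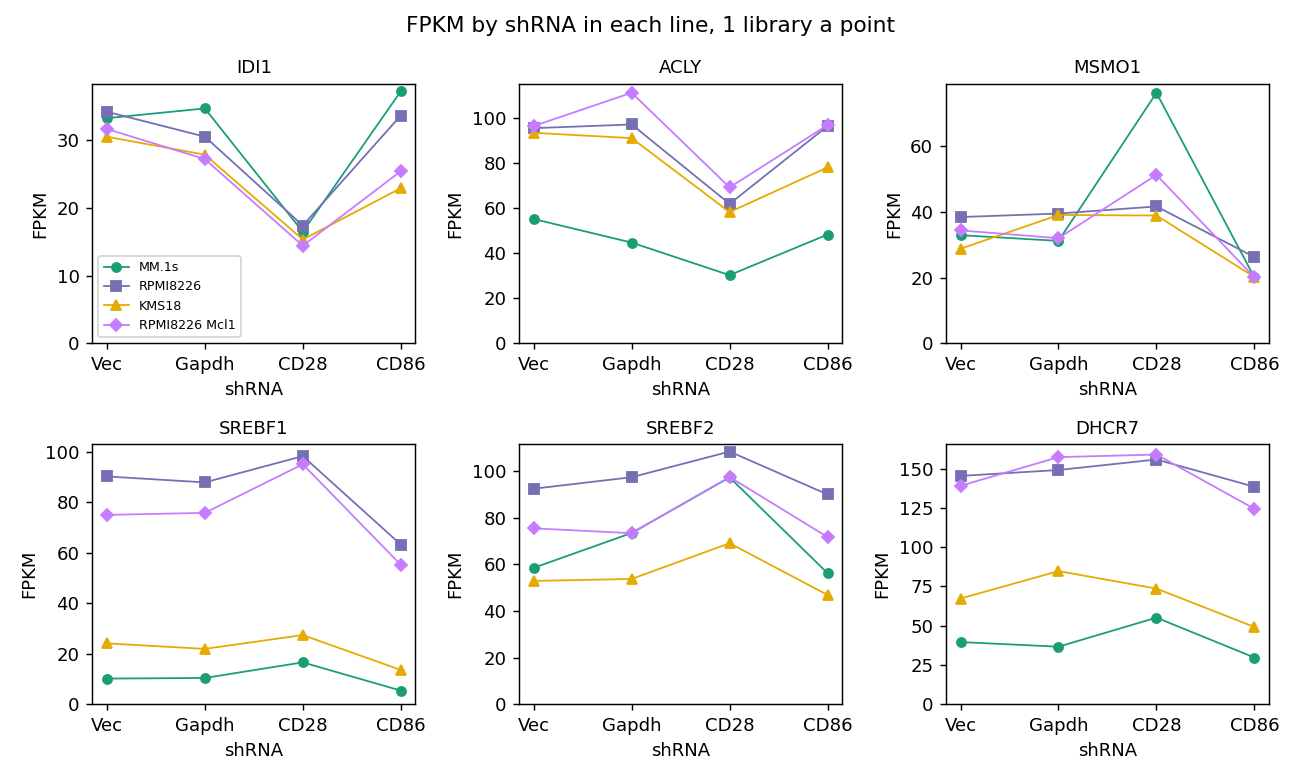
FPKM (axes start at 0) of 6 members by shRNA, 1 library a point, with points of 1 line joined. IDI1 with CD28 shRNA sits at 14.4 to 17.4 FPKM in all 4 lines, and MSMO1 with CD86 shRNA at 20.1 to 26.3 FPKM.

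The other sterol enzymes did not pass with CD28 shRNA, and their median log2 difference over all 19 was 0.09, against -0.003 for all genes. MSMO1, which removes methyl groups from the sterol ring, had a log2 difference of 0.57 (SE 0.21, adjusted p = 0.172) and SC5D one of 0.55 (SE 0.20, adjusted p = 0.165). The widest steps were in MM.1s, where MSMO1 went from 33.0 FPKM with Vec to 76.3 and SC5D from 3.16 to 7.2. In RPMI8226 the same genes were at 38.5 and 41.7, and at 2.90 and 3.36 FPKM. The median of the sterol enzymes was highest in MM.1s (0.28) and the Mcl1 line (0.20), near 0 in RPMI8226 (0.02) and lowest in KMS18 (-0.08). Of the 29 members 8 were above Vec in all 4 lines (13.7% of genes were), namely HMGCS1, MVK, MSMO1, EBP, SC5D, DHCR7, SREBF1 and SREBF2. Below Vec in all 4 lines were 4 members (16.6% of genes were), IDI1, FDFT1 (so with Gapdh shRNA too), ACLY and SCD. An unadjusted p under 0.05 by limma was reached by 6 members that were higher (8.45% of genes) and 3 that were lower (11.3%). In the authors' deposited table the rises of MSMO1 (log2 fold change 0.63), SC5D (0.72) and SREBF2 (0.47) and the falls of IDI1 (-0.98) and ACLY (-0.71) passed a false discovery rate of 0.05, as did 5.38% of the genes in that table.

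The 3′ untranslated regions of genes that fell with CD28 shRNA shared letters, and 2 of the members that fell carry them. Over the longest annotated 3′ region per gene (GENCODE v29, GRCh38), CTGTGTT was the 7-letter word whose frequency differed most between genes that fell and the rest, a choice made after the results were seen. It was in 135 of 220 genes that fell (61.4%) and in 2348 of 9962 others (23.6%). It occurred 3 times in IDI1 (minus strand, in order chr10:1040489-1040517, chr10:1040193-1040221 and chr10:1039888-1039916) and once in ACLY (minus strand, chr17:41867234-41867262), shown with the word in capitals.
IDI1 site 1: gttagcaaagtCTGTGTTttcagaattac
IDI1 site 2: acaacaaaggcCTGTGTTaatgttaaata
IDI1 site 3: gcaatttaataCTGTGTTtagtttgttaa
ACLY site: actgaaatgttCTGTGTTgcagaccagag

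Of the 29 members 8 hold this word, with a median log2 difference of -0.19, and the other 21 had a median of 0.09. The word was picked from the genes that fell here, IDI1 and ACLY included, so the lower median was partly fixed by that choice. The length of the 3′ region was not taken into account. The members that hold it and did not pass were MVK, LSS, INSIG1, STARD4, FASN and SCD, with log2 differences from -0.23 (SCD) to 0.19 (MVK), and LSS, with 3 copies like IDI1, was at 0.0016. The part of this word, and of the lower depth of the CD28 shRNA libraries, in the result was not tested.

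CD86 shRNA against Vec gave 1 call among the 29 members, a fall of SREBF1, against 0.627% of 11316 genes (0.566% lower and 0.0619% higher). The CD86 shRNA library had the lowest SREBF1 value in each of the 4 lines, at 5.41, 63.2, 13.6 and 55.2 FPKM against 10.2, 90.2, 24.1 and 75 with Vec, which is 59.9% ± 8.98 of Vec (SD over 3 lines). The log2 difference was -0.70 (SE 0.13, adjusted p = 0.0422), and it did not pass when any line was left out (adjusted p = 0.131 without MM.1s, 0.108 without RPMI8226 and 0.455 without KMS18). Of the 29 members 23 had an estimate below 0, against 45.7% of all genes, with a median of -0.14 against 0.02 for all genes. An unadjusted p under 0.05 was reached by 7 members, all lower, against 12.8% of all genes (6.55% lower and 6.29% higher). FASN had a log2 difference of -0.46 (SE 0.12, adjusted p = 0.141), SCD one of -0.44 (SE 0.16, adjusted p = 0.282) and MSMO1 one of -0.57 (SE 0.21, adjusted p = 0.296).

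The direction was seen in all 4 lines for 10 members with CD86 shRNA, namely FDFT1, SQLE, MSMO1, HSD17B7, EBP, DHCR7, SREBF1, SREBF2, FASN and SCD, and 11.5% of all genes tested were lower in all 4 lines. The shift was widest in KMS18, where 25 of 29 members were below Vec, against 49.2% of all genes. The sterol enzymes had a median log2 difference of -0.36 there, against -0.06 in MM.1s, -0.07 in RPMI8226 and -0.16 in the Mcl1 line. With Gapdh shRNA this median was -0.02 in KMS18 and 0.04 in the Mcl1 line. It was -0.09 in MM.1s and -0.20 in RPMI8226, lower than with CD86 shRNA. FDFT1 was below Vec in all 4 lines with Gapdh shRNA too. GGPS1, which makes geranylgeranyl diphosphate and shares exon bases with TBCE, was the 1 member above Vec in all 4 lines with CD86 shRNA, with an estimate of 0.26 (SE 0.12, adjusted p = 0.399 by limma). In the authors' deposited table the falls of MSMO1 (log2 fold change -0.60), SREBF1 (-0.74) and FASN (-0.49) passed, as did 2.04% of genes. Among genes that fell with CD86 shRNA, TCAAGCA was the 7-letter word most enriched in the 3′ regions, in 38 of 64 genes against 13.5% of the others. Of the members CYP51A1 and MSMO1 hold it and SREBF1 does not. The overlapping word of rank 2, TTCAAGC, is in CYP51A1, MSMO1 and SCD. SREBF1 and SCD each hold CAAGCAG once, the word of rank 3, which was in 37.5% of genes that fell against 13% of the others. These words were picked after the results were seen, from the genes that fell here, SREBF1 included. The part of these words in the result was not tested.

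**Figure D3:**
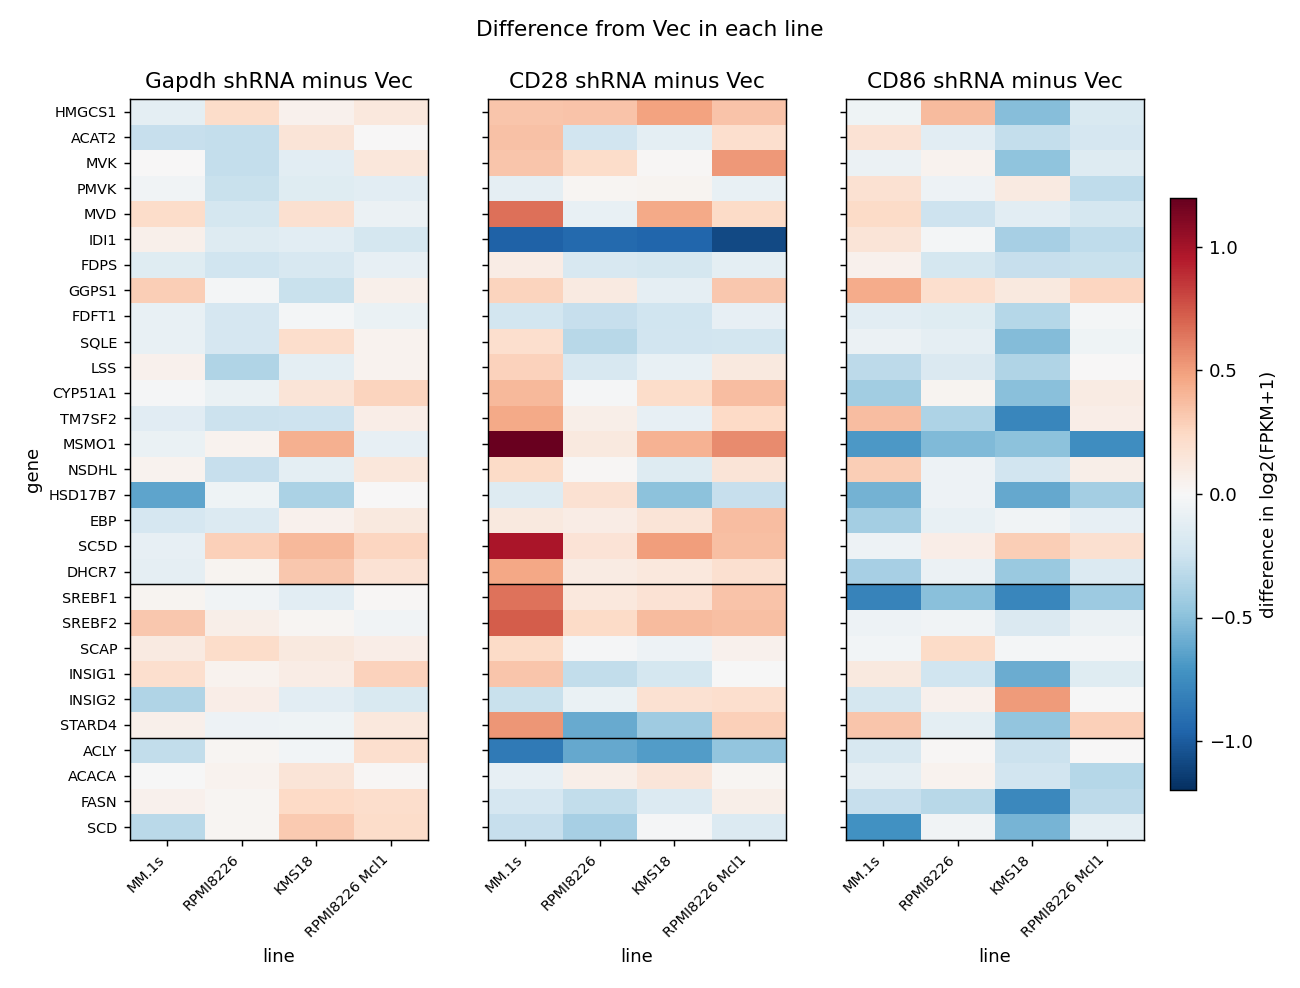
Difference in log2(FPKM + 1) from the Vec library of the same line for the 29 genes (rows) in the 4 lines (columns), for Gapdh, CD28 and CD86 shRNA, with higher values in red and lower values in blue. With CD28 shRNA IDI1 is at -0.94 to -1.08 in every line, and with CD86 shRNA SREBF1 is at -0.43 to -0.80.

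Gapdh shRNA, the second control, gave no call among the members or among all 11316 genes (0%) by limma, and none by voom on recovered reads. At an unadjusted p under 0.05 there were 2 members, FDPS and HSD17B7, both lower, and 402 genes. GAPDH itself did not pass, with a log2 difference of -1.89 (SE 0.37, adjusted p = 0.9999), and its level with Gapdh shRNA ranged from 133 FPKM in KMS18 to 630 in MM.1s. The sterol enzymes had a median log2 difference of -0.10 with this control and the fatty acid enzymes one of 0.03, against -0.009 for all genes. Below Vec in all 4 lines were PMVK, FDPS and FDFT1 (9.15% of genes were), and above it SCAP, INSIG1 and FASN (7.35%).

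CD86 shRNA compared directly with CD28 shRNA set ligand against receptor. The difference itself does not use Vec, but the Vec and Gapdh shRNA libraries entered the spread behind its SE and p-value. The log2 difference of CD86 itself was -1.33 (SE 0.24, adjusted p = 0.00943), a gap that includes its higher values with CD28 shRNA. Of the 29 members 6 passed, against 9.51% of 11316 genes. IDI1 and ACLY were higher with CD86 shRNA (5.41% of genes were), and MSMO1, DHCR7, SREBF1 and SREBF2 were lower (4.1% of genes were). MSMO1 was at 76.3, 41.7, 39.0 and 51.3 FPKM with CD28 shRNA in MM.1s, RPMI8226, KMS18 and the Mcl1 line, at 20.1, 26.3, 20.2 and 20.1 with CD86 shRNA, at 33.0, 38.5, 28.8 and 34.4 with Vec, and at 31.2, 39.6, 39.1 and 32.1 with Gapdh shRNA. The CD86 shRNA libraries lay below all 12 others. The log2 difference was -1.14 (SE 0.21, adjusted p = 0.0106), and without KMS18 it was -1.26 (adjusted p = 0.0685).

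SREBF1 and SREBF2 differed in the same direction. For SREBF1 the log2 difference was -1.01 (SE 0.13, adjusted p = 0.00197), and the CD86 shRNA library was below the CD28 shRNA library in all 4 lines. For SREBF2 it was -0.53 (SE 0.10, adjusted p = 0.0106), and -0.41 without MM.1s (adjusted p = 0.0802) and -0.52 without KMS18 (adjusted p = 0.104). DHCR7 was at 55.1, 156, 73.6 and 159 FPKM with CD28 shRNA, at 29.7, 139, 49.2 and 124 with CD86 shRNA, at 39.6, 145, 67.3 and 139 with Vec, and at 36.6, 149, 84.8 and 157 with Gapdh shRNA. It was lower with CD86 than with CD28 shRNA in each line, and its log2 difference of -0.54 (SE 0.14, adjusted p = 0.0401) did not pass when any line was left out (adjusted p = 0.213 without MM.1s, 0.0528 without RPMI8226 and 0.138 without KMS18).

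IDI1 and ACLY moved the other way from these enzymes and regulators, by 0.86 (SE 0.11, adjusted p = 0.00224) and 0.57 (SE 0.09, adjusted p = 0.00428). IDI1, ACLY and SREBF1 passed with each line left out in turn. Over all 19 sterol enzymes the median log2 difference was -0.28 against 0.03 for all genes, and 15 of 19 were below 0 against 45.7% of all genes. HMGCS1, the synthase that begins the mevalonate branch, had -0.45 (adjusted p = 0.107). CYP51A1, the lanosterol demethylase, had -0.49 (adjusted p = 0.0605), and EBP, the sterol isomerase, had -0.30 (adjusted p = 0.0545). The promoters printed above belong to 2 of the genes that were lower with CD86 shRNA. CCAAT was also in a promoter of DHCR7, which was lower, and of IDI1 and ACLY, which were higher. It was not in the only promoter searched of SREBF1, which was lower.

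**Figure D4:**
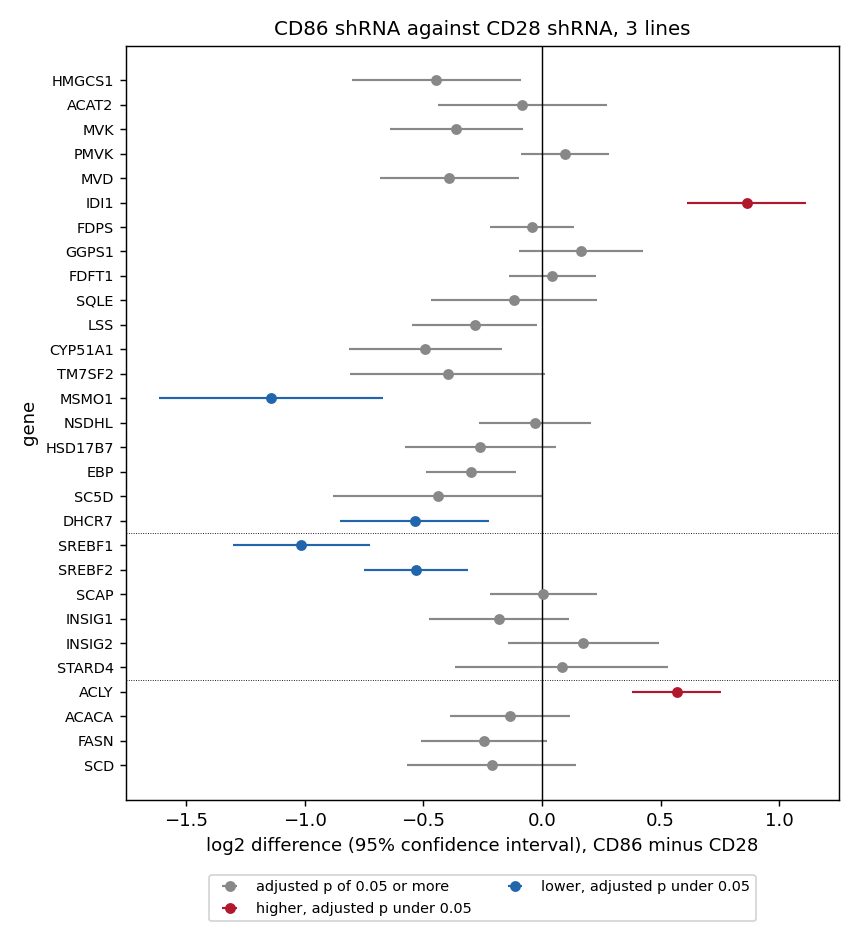
Log2 difference (x axis) between CD86 and CD28 shRNA over MM.1s, RPMI8226 and KMS18 for the 29 genes, with 95% confidence intervals from limma and members past an adjusted p of 0.05 in colour. IDI1 (0.86) and ACLY (0.57) sit to the right, and MSMO1 (-1.14) and SREBF1 (-1.01) farthest to the left.

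In this comparison 9 members passed in the table the authors deposited, against 10.3% of genes, with IDI1 and ACLY higher and HMGCS1, CYP51A1, MSMO1, SC5D, DHCR7, SREBF1 and SREBF2 lower. Both shRNA comparisons with Vec share the Vec libraries, and all values are given side by side above for that reason.

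RPMI8226 overexpressing Mcl1 was compared with RPMI8226 over 4 pairs of libraries with the same shRNA. Of the 29 members 11 passed, against 34.4% of 11024 genes, a share near that of genes at large. Of these 10 were lower, against 14.9% of genes, and NSDHL was higher, against 19.5%. SCD fell most, from 177, 179.9, 134 and 172 FPKM in RPMI8226 with Vec, Gapdh, CD28 and CD86 shRNA to 124, 145, 110.0 and 114 in the Mcl1 line, lower in 4 of 4 pairs. Its log2 difference was -0.43 (SE 0.06, adjusted p = 0.00143). The other fatty acid enzymes did not pass, with estimates of 0.01 to 0.09.

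Among the regulators SREBF2, INSIG1 and SREBF1 fell. SREBF2 went from 92.5, 97.4, 108 and 90.04 FPKM to 75.5, 73.4, 97.5 and 71.8, a log2 difference of -0.29 (SE 0.05, adjusted p = 0.00361). INSIG1, the sterol-regulated partner of SCAP, was at 156, 160.3, 126 and 132 FPKM in RPMI8226 and at 117, 143, 117 and 106 in the Mcl1 line, and at 77, 88.5, 97.5 and 83.8 in MM.1s and 96.2, 103, 83.2 and 63.3 in KMS18. INSIG1 was lower in 4 of 4 pairs, by -0.25 on the log2 scale (SE 0.05, adjusted p = 0.0104). SREBF1 had -0.18 (SE 0.05, adjusted p = 0.0224), with values in each library given above. SREBF1 did not pass without the Vec (adjusted p = 0.0942), Gapdh (0.0779) or CD86 shRNA pair (0.0679).

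**Figure D5:**
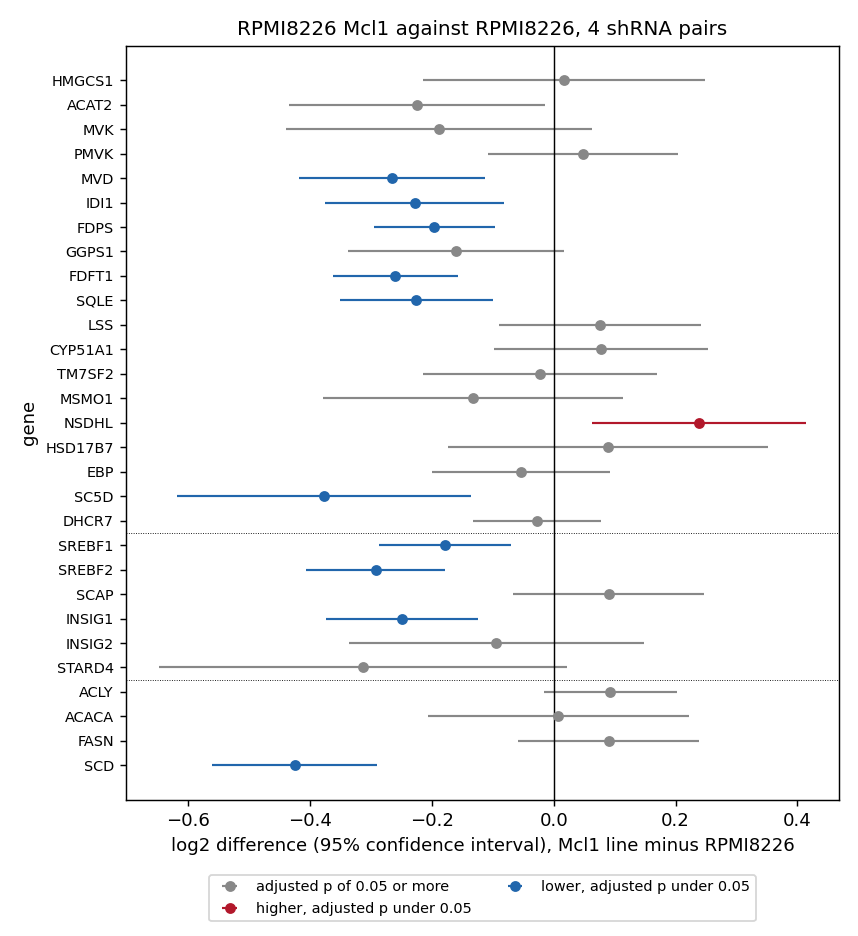
Log2 difference (x axis) between the Mcl1 line and RPMI8226 over 4 shRNA pairs for the 29 genes, with 95% confidence intervals from limma and members past an adjusted p of 0.05 in colour. The called differences lie between -0.43 (SCD) and 0.24 (NSDHL).

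MVD, IDI1, FDPS, FDFT1, SQLE and SC5D, 6 of 19 sterol enzymes, fell in the Mcl1 line. MVD was at 35.6, 30.7, 33.4 and 29.7 FPKM in RPMI8226 and at 26.9, 25.6, 31.7 and 23.1 in the Mcl1 line, with 7.07, 8.37, 11.7 and 8.45 in MM.1s and 14.5, 16.7, 20.3 and 13.2 in KMS18. FDFT1 was at 88.5, 76.7, 73.0 and 79.9 FPKM in RPMI8226, 68.5, 64.8, 63.8 and 67.3 in the Mcl1 line and 35.5, 35.0, 29.9 and 27.9 in KMS18. FDFT1 had no overlap between RPMI8226 and the Mcl1 line, and its log2 difference was -0.26 (SE 0.04, adjusted p = 0.00375). FDPS was at 167, 142, 146 and 145 FPKM in RPMI8226 and at 142, 133, 131 and 118 in the Mcl1 line, with 131, 119, 140.3 and 136 in MM.1s and 174, 152, 151 and 144 in KMS18. FDPS shares 28.9% of its exon bases with the antisense gene RUSC1-AS1, and the counting strand is not given in the sources used here. Its log2 difference was -0.20 (SE 0.04, adjusted p = 0.0111), and it did not pass without the Vec pair (adjusted p = 0.0518).

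SC5D was at 2.90, 3.75, 3.36 and 3.13 FPKM in RPMI8226 and at 1.86, 2.42, 2.68 and 2.26 in the Mcl1 line, with 3.16, 2.89, 7.2 and 3.0 in MM.1s and 3.24, 4.55, 5.0 and 4.22 in KMS18. All 4 Mcl1 line values were below all 4 RPMI8226 values, and the log2 difference was -0.38 (SE 0.10, adjusted p = 0.0266). MVD (-0.27), IDI1 (-0.23) and SQLE (-0.23) also passed. Neither MVD nor SC5D passed without the Vec, Gapdh or CD86 shRNA pair (adjusted p = 0.0565 to 0.0974 by limma). IDI1 did not pass without the Gapdh, CD28 or CD86 shRNA pair (adjusted p = 0.0595 to 0.101). SQLE did not pass without the Vec (adjusted p = 0.0686) or CD86 shRNA pair (0.0596). NSDHL, a sterol decarboxylase, was at 21.0, 17.3, 21.2 and 20.2 FPKM in RPMI8226 and at 22.1, 24.4, 24.7 and 23.3 in the Mcl1 line, with 19.2, 19.7, 22.7 and 23.7 in MM.1s and 47.5, 43.7, 42.7 and 40.4 in KMS18. The rise of NSDHL was 0.24 (SE 0.07, adjusted p = 0.0438), and it did not pass without the Gapdh (0.16, adjusted p = 0.144), CD28 (adjusted p = 0.0888) or CD86 shRNA pair (adjusted p = 0.0909). The count of 11 members was 6 without the Vec pair, 6 without Gapdh, 12 without CD28 and 5 without CD86 shRNA, and FDFT1, SREBF2, INSIG1 and SCD were among them each time.

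The response of the Mcl1 line to a shRNA was compared with the mean response of the 3 other lines as an interaction. No member passed for CD28 shRNA (0.00881% of 11349 genes did) or for CD86 shRNA (0% of genes). At an unadjusted p under 0.05 there were 0 members for CD28 shRNA, against 3.27% of genes, and 1 of 29 for CD86 shRNA, against 2.58%, a share near that of all genes. That member was PMVK, the phosphomevalonate kinase, with -0.38 (SE 0.17). Each response of the Mcl1 line rests on a single library per arm, and a missed threshold does not show that the responses were alike.

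Genes around the 29 were counted by list. With CD28 shRNA against Vec, 1 of 11 tested genes for oxysterol response, sterol export and storage fell, SOAT1, which esterifies cholesterol (log2 difference -0.86, SE 0.14, adjusted p = 0.0107). This did not pass when any line was left out (adjusted p = 0.0633 without MM.1s, 0.0731 without RPMI8226 and 0.126 without KMS18). No gene passed among 9 for SREBP processing and degradation, 22 for fatty acid activation, elongation and desaturation and 14 of the isoprenoid branch. With CD86 shRNA against Vec none of these lists had a call. Between CD86 and CD28 shRNA the processing gene ERLIN2 was higher (0.64, SE 0.15, adjusted p = 0.0288), and it did not pass without MM.1s (adjusted p = 0.124), RPMI8226 (0.187) or KMS18 (0.0825). In the same comparison, in which 9.51% of all genes passed, 2 of 22 fatty acid genes were higher, and 2 of 11 genes of the oxysterol list were higher and 2 lower, where the liver X receptor NR1H2 was lower (-0.69, SE 0.13, adjusted p = 0.0107) and SOAT1 higher (0.64, SE 0.14, adjusted p = 0.0184). NR1H2 did not pass without RPMI8226 (adjusted p = 0.0707) or KMS18 (0.121), and SOAT1 did not pass without MM.1s (0.0508), RPMI8226 (0.142) or KMS18 (0.113). The isoprenoid branch had 1 of 14 in each direction. In the Mcl1 line, where 19.5% of all genes were higher and 14.9% lower, 2 of 9 processing genes were lower, 4 of 20 fatty acid genes higher and 4 lower, 1 of 11 oxysterol genes higher and 4 lower, and 2 of 14 isoprenoid genes higher and 2 lower.

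Members not described above were ACAT2, the thiolase at the start of the pathway, MVK, the mevalonate kinase, and STARD4, a cholesterol carrier. ACAT2 ranged from 8.53 to 29.8 FPKM, with 34.8% of its exon bases shared with SOD2 on the other strand. MVK ranged from 10.4 to 18.9 FPKM and STARD4 from 4.91 to 12.02 FPKM. None of them passed in a shRNA or Mcl1 comparison. PMVK ranged from 44.9 to 98.6 FPKM, HMGCS1 from 21.6 to 51.6, LSS from 20.01 to 42.5, CYP51A1 from 23.3 to 67.0 and EBP from 86.8 to 164. GGPS1 stayed between 5.05 and 9.24 FPKM.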

How the data were processed

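The authors deposited 1 table of FPKM values for 16 libraries, with log2 fold changes, likelihood-ratio scores, p-values and false discovery rates (FDR) of their own comparisons. Tools named in the submitters' processing notes, with no role or order, are edgeR 3.12.1, R 3.2.2, Picard and TopHat2 2.0.13; the named builds are GRCh37, hg19 and mm9. FPKM times exon length gave whole reads for 100% of values (tolerance 0.02 of a read), used for depth and for voom. Of the low recovered counts 71.9 to 74.5% were even in each library, so a count may exceed the number of independent fragments.

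Tests used limma 3.58.1 in R 4.3.3 (eBayes with trend) on log2(FPKM + 1), two-sided, for genes averaging 1 FPKM or more, with Benjamini-Hochberg adjustment over all genes. Parental lines were fitted together (12 libraries, terms for shRNA and line, 6 residual degrees of freedom), since each line received each shRNA once and so pairs the libraries. The Mcl1 line was fitted with RPMI8226 (8 libraries, term for shRNA, 3 degrees of freedom). The log scale understates changes of low genes. Fits were tested on simulated data. Members, lists, motifs and tests were chosen with earlier results of these data known. Members described with every value are those past the threshold in a shRNA or Mcl1 comparison and the 2 per group that differ most between lines. A gene of the processing list is not reported here.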

Additional observations from a re-analysis of the deposited data

How the results depend on the processing

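Each count of members past the threshold was recomputed with log2(FPKM + 0.1), no filter, a mean of at least 5 FPKM, median-of-ratios scaling, voom with TMM, each line or shRNA pair left out, no replicate block, for the shRNA comparisons with the Mcl1 line as a further line, and for those against Vec with Gapdh shRNA or the mean of both controls. The interactions were refitted under the first 5 of these. No result reversed under any of them. For CD28 shRNA against Vec (3 members), leaving out a line gave 1 (without KMS18) to 2, and no replicate block gave 0, because the line differences then enter the error. For CD86 shRNA against Vec (1 member), log2(FPKM + 0.1), no filter and no replicate block gave 0, leaving out a line gave 0 to 0, and voom, the 16 libraries and the mean of both controls gave 2. For CD86 against CD28 shRNA (6 members), leaving out a line gave 3 (without KMS18) to 6, no replicate block gave 0 and the 16 libraries gave 11. For the Mcl1 line against RPMI8226 (11 members), leaving out a pair gave 5 to 12 and no replicate block gave 3. The counts between lines and the interaction counts stayed within 1.5 times. The cause of the other changes was not tested. Depth limits SQLE in MM.1s, which rests on 22 to 24 reads per library. It also limits TM7SF2 in KMS18 (23 to 57 reads) and CD86 (18 to 186 reads over all libraries).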
